A study of Mus musculus with 6 samples.

Results

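Cytosolic ribosomal protein genes were followed in purified mouse rods, the dim-light photoreceptors of the retina, with and without a plasmid aimed at the transcription factor Jun. The genes were chosen by name alone: protein-coding rows called Rpl or Rps with a number, together with Rplp0, Rplp1, Rplp2 and Rpsa, leaving out the S6 kinases and copies on patch sequences. The rule found 81 of the 52143 genes in the deposited gene table, of which 51 were assigned by name to the large subunit and 30 to the small subunit. They lie on 19 chromosomes, with 14 on chromosome 7, 8 on chromosome 17 and 7 on chromosome 11, and 4 are X-linked. The rule misses 8 genes that belong to or ride on the ribosome, among them Rps3a1, Rpl36al, Rps27l, Rps27rt, Rps4l, Fau and Rack1, and they are described apart.

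Plasmids were put into newborn retinas by in vivo electroporation at P0 (postnatal day 0), and EGFP-positive cells were purified by flow sorting at P10. The 3 control libraries come from retinas given a scrambled pLKO.1 plasmid for a short hairpin RNA (shRNA). The other 3 come from retinas given a Jun shRNA plasmid, and both plasmids were used at 2.5 µg/µl and 0.4 µl. Both groups also received Nrlp-EGFP at 1.5 µg/µl, in which the promoter of Nrl, a rod transcription factor, drives the green marker on which cells were sorted. The labels name no animals or litters behind a library, and p-values therefore refer to variation among these libraries, which may be technical in part.

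A eukaryotic ribosome joins a large subunit, which forms peptide bonds, to a small subunit, which reads the mRNA. Their proteins are made in matched amounts, and many of their mRNAs begin with a run of pyrimidines, the terminal oligopyrimidine (TOP) motif, through which mTOR signalling and the protein Larp1 set their translation together. Rods renew their outer segments every day and keep up a high rate of protein synthesis. Ribosomal protein genes have also left many processed pseudogenes, near-identical copies without introns, so reads of a gene and of its copies can be hard to tell apart.

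The annotated first bases were read for each tested member to show how the TOP motif looks in this family. The transcript read was the protein-coding one with the most counts in the controls, and the Jun shRNA libraries had no part in that choice. Of 78 members, 10 (12.8%) began with at least 5 pyrimidines (C or T, on the transcribed strand, with no break from the first base), against 445 of 10546 other tested protein-coding genes (4.22%). The first 20 bases of these 10 follow from GENCODE vM21 (GRCm38), 5′ to 3′, with the pyrimidine run in capitals.
Rpl32 (chr6:115808728-115808747, minus strand): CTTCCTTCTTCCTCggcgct
Rps25 (chr9:44407695-44407714, plus strand): CCTTTTTTTCCgacatctta
Rpl30 (chr15:34443203-34443222, minus strand): CCTTTCTCgctccccggcca
Rpl4 (chr9:64173375-64173394, plus strand): CTTTTCCTgtgggagcagcc
Rpl37 (chr15:5116645-5116664, plus strand): CTCTTCCggtctctttggcc
Rps21 (chr2:180257377-180257396, plus strand): CCCTCCTgcccaatagtgct
Rpl36 (chr17:56613416-56613435, plus strand): CTTCCTgtcccggccgccat
Rpl37a (chr1:72711290-72711309, plus strand): CTCTTCggacttgggcttgg
Rps15a (chr7:118115658-118115677, minus strand): CTCCCgaaagggggtgtgtg
Rps27a (chr11:29547841-29547860, minus strand): TTTCCgatccgccatcgtgg
An annotated start can differ from the start used in rods, so a member without a run here may still have one. Of these 10 genes, 6 had a lower and 4 a higher fitted level in the Jun shRNA group, with a median log2 fold change of -0.12, and none passed the test described below.

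Some measurements of the whole series bear on every value that follows. Library totals ran from 32150100 to 105801000 estimated counts over the controls and from 13211300 to 13998400 over the Jun shRNA libraries (to 6 digits), so depth and group cannot be told apart. Jun itself was not lower: its level was 6.47, 5.85 and 7.16 CPM (counts scaled to a common library size, here by TMM) in the controls and 1.84, 17.6 and 19.3 in the Jun shRNA libraries (log2 fold change 0.99, SE 1.44, adjusted p = 0.764), and these are called the libraries labelled Jun knockdown, or Jun shRNA libraries. All 12 rod markers were tested and present, with a summed level of 114838 to 122939 CPM in the controls and 28996 to 45755 CPM in the Jun shRNA libraries, and 8 of them fell. Markers of other cells differed too. The 8 microglial markers summed to 747 to 1018 CPM in the controls and 1.64 to 5.23 CPM in the Jun shRNA libraries, where C1qa, C1qb, C1qc and Tyrobp were each at 0 in at least 1 library. Of the 7 tested microglial markers, 4 fell. The 8 Müller glia markers summed to 1765 to 2096 CPM against 261 to 339 CPM, with Aqp4 at 0 in 1 Jun shRNA library. Taken singly they were mixed, 5 with a negative and 3 with a positive log2 fold change (-5.08 to 5.14). Of these markers 0 were called. The sum of the 7 bipolar cell markers went the other way, at 688 to 777 CPM in controls and 944 to 1543 CPM in Jun shRNA libraries. Of these markers 5 had a positive and 2 a negative log2 fold change. One of them (1 call), Prkca, rose (log2 fold change 3.76, SE 0.76, adjusted p = 0.0468). Cone markers summed to 2065 to 6161 CPM in controls and 823 to 1554 CPM in Jun shRNA libraries (1 of 7 tested fell). Vascular and blood markers summed to 485 to 834 against 67.7 to 153 CPM (3 of 6 tested fell). Pigment epithelium markers summed to 208 to 215 against 0.226 to 0.885 CPM (1 of 2 tested fell). The sums of amacrine and ganglion markers and of progenitor markers overlapped between groups. The part of these cell-type and depth differences in the results below was not tested, and in bulk RNA fewer cells of a type cannot be told apart from less RNA per cell.

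The family as a whole took an overlapping share of the counts in both groups. The 81 genes held 1.35%, 1.21% and 1.94% of all counts in controls, against 2.00%, 1.61% and 2.21% in the Jun shRNA libraries. Control 3 lay among the Jun shRNA libraries, so the groups overlapped. The mean was 1.50% ± 0.388 (SD, n = 3) in controls and 1.94% ± 0.302 (SD, n = 3) in the other group, a difference of 0.438 percentage points beside a pooled SD of 0.348. Large subunit genes held 0.922% ± 0.236 and 1.17% ± 0.219 of counts, and small subunit genes 0.581% ± 0.153 and 0.773% ± 0.0841. The ratio of large to small subunit counts was 1.59 ± 0.0384 in controls and 1.50 ± 0.133 in the Jun shRNA libraries, so the balance of the subunits differed by less than the spread of the second group. The 78 genes of the mitochondrial ribosome, a separate machine that translates mitochondrial DNA, held 0.883% ± 0.105 and 1.06% ± 0.0994 of counts.

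**Figure D1:**
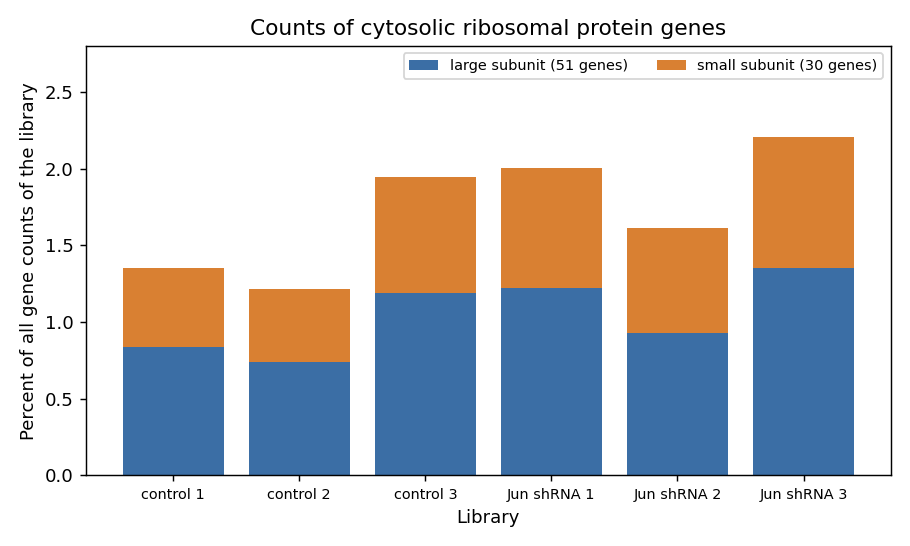
Percent of all gene counts (vertical axis) held by large subunit (blue) and small subunit (orange) ribosomal protein genes in each of the 6 libraries. The total was 1.21 to 1.94% in the controls and 1.61 to 2.21% in the Jun shRNA libraries, and the ranges overlap.

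Gene by gene, 1 of the 78 tested members fell in the Jun shRNA libraries and 0 rose. The gene that fell was Rplp0, which anchors the stalk of the large subunit. Over all 12815 tested genes, 1.67% passed the same threshold (adjusted p under 0.05, edgeR's quasi-likelihood test), 1.35% as lower and 0.32% as higher. At an unadjusted p under 0.05 there were 6 members of 78, against 2159 of all 12815 genes (16.8%). DESeq2 called 3 members as lower (Rps2, Rpl13 and Rpl3l) but not Rplp0, and it called 6.96% of the genes it tested as lower. The median log2 fold change was -0.06 over the 48 tested large subunit genes and -0.11 over the 30 small subunit genes, beside -0.12 over all tested genes.

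The sign of these medians depended on how libraries were scaled, and the median of all genes moved with them. With library totals in place of TMM (the trimmed mean of M-values, which sets a common scale from genes of similar level), the medians were 0.42 for large subunit, 0.36 for small subunit and 0.38 for all genes. With upper quartile scaling they were 0.31, 0.26 and 0.27. Members with a negative fitted value numbered 45 with TMM, 37 with median-of-ratios scaling, 30 with upper quartile scaling and 23 with library totals, out of 78 each time. Under each of these 4 scalings both subunits lay within 0.1 of the median of all genes. Other settings did not keep them together. Without Jun shRNA library 2 the medians were 0.10 for large subunit and 0.02 for small subunit beside -0.24 for all genes, and without control 3 they were 0.11 and 0.05 beside -0.03. With summed transcript counts they were 0.04 and 0.09 beside -0.09, and with DESeq2 -0.03 and -0.07 beside 0.38. The DESeq2 median of all genes covers every gene with any count, without the filter. It therefore cannot be set beside the medians of the filtered fits. The filter also kept more genes without Jun shRNA library 2 (14888) and without control 3 (13632). No direction of the family relative to other genes is given.

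Member genes also spread less than other genes, both between and within groups. The absolute log2 fold change was under 1 for 64 of 78 members (82.1%), against 38.0% of all tested genes and 60.3% of mitochondrial ribosomal protein genes. The median absolute value was 0.44 for members and 1.38 for all tested genes. The median standard deviation within a group, on the log2 scale, was 0.49 for members and 1.31 for all tested genes. These are descriptions without a test, and members were abundant genes, as the levels per length show. Libraries also differed within a group: relative to the control mean of each gene (log2 of CPM plus 0.5), the median large subunit gene sat at -0.69 in Jun shRNA library 2 and at 0.36 in Jun shRNA library 3, and the median small subunit gene at -0.48 and 0.13.

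**Figure D2:**
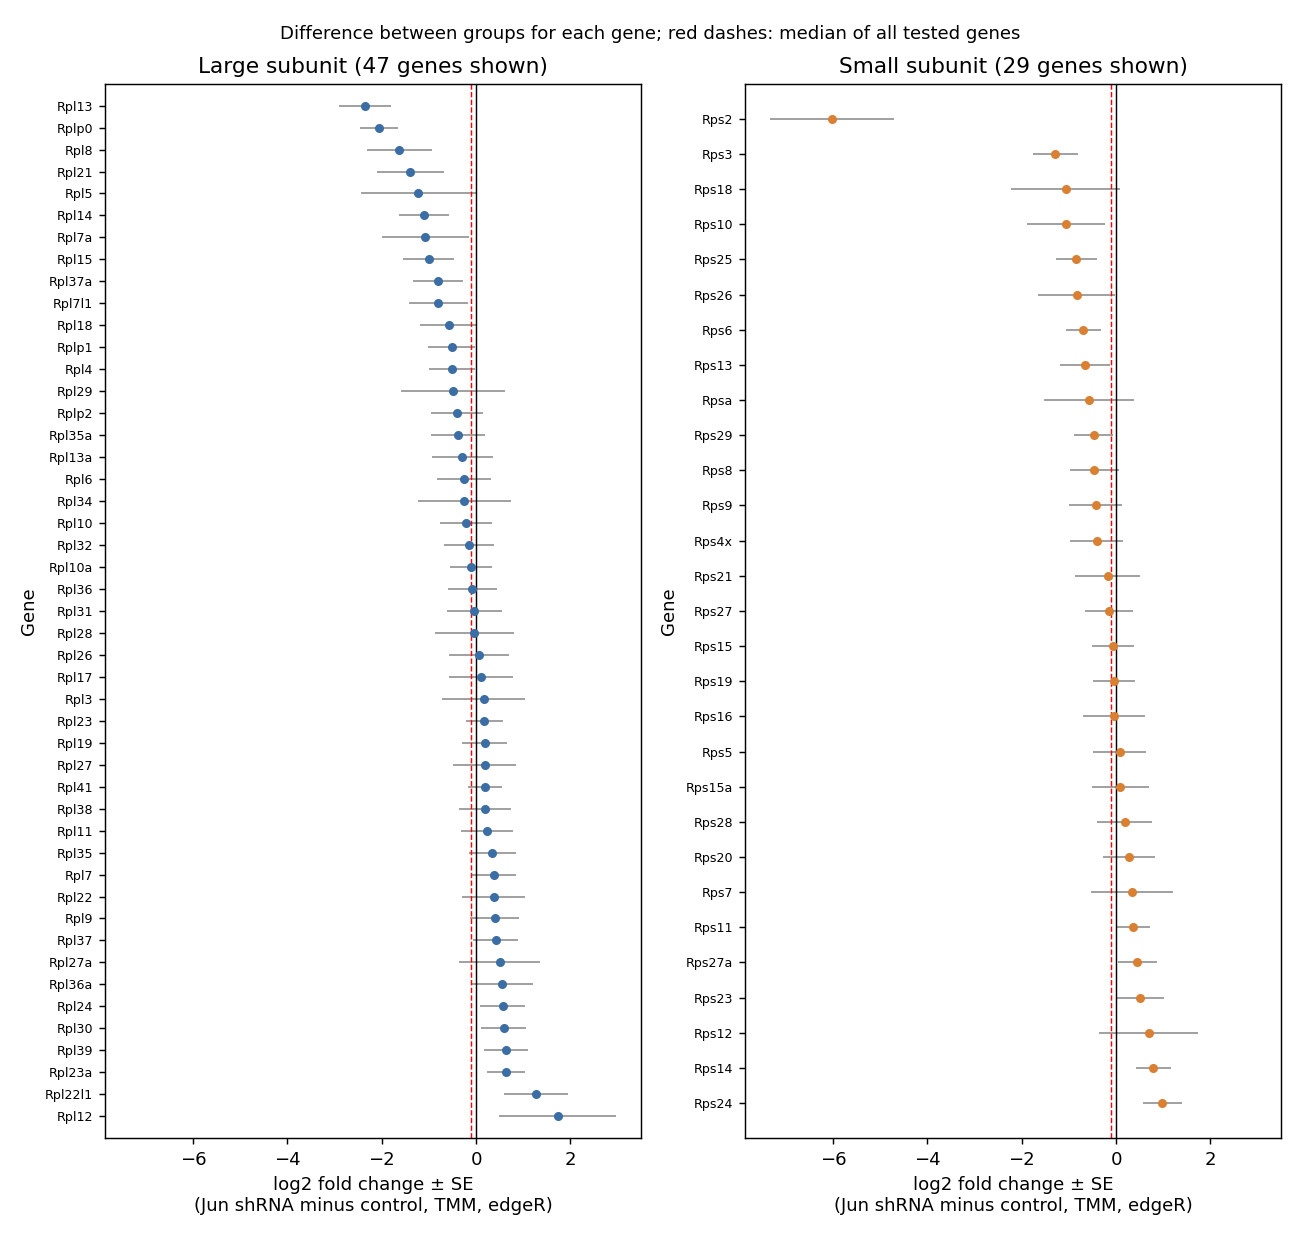
Log2 fold change (Jun shRNA minus control, TMM scaling; horizontal axis) with its standard error for 47 large subunit genes (left, blue) and 29 small subunit genes (right, orange) tested with edgeR. Most values lie between -1 and 1 around the median of all tested genes (-0.12, red dashes), and Rps2 lies far to the left at -6.03.

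The ribosomal stalk is a flexible arm of the large subunit, built from Rplp0 at its base and dimers of Rplp1 and Rplp2, that brings elongation factors to the ribosome. Rplp0 (chr5:115559467-115563727, GRCm38, plus strand), often used as a reference gene in expression work, was at 511, 607 and 784 CPM in the controls and 191, 124 and 138 CPM in the Jun shRNA libraries. Every control was above every Jun shRNA library. The means were 634 ± 138 and 151 ± 35.5 CPM (SD, n = 3 each), and the fall of Rplp0 had a log2 fold change of -2.07 (SE 0.40, adjusted p = 0.0454). Its 4 near-identical copies held only 1.93% of the family's counts in controls and 3.12% in Jun shRNA libraries, and with them added the value was -2.05 (adjusted p = 0.0443). The call is narrow: leaving out any 1 library ended it, with adjusted p from 0.0778 (without Jun shRNA library 1) to 0.161 (without control 3) and log2 values from -2.30 to -1.88, and median-of-ratios scaling (0.0617), upper quartile scaling (0.0805), library totals (0.0835), DESeq2 (0.108), limma-voom (0.0521) and thinning to equal depth (0.0831) each ended it.

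The partners of Rplp0 did not pass. Rplp1, at 264, 226 and 518 CPM in controls and 205, 182 and 316 CPM in Jun shRNA libraries, had a log2 fold change of -0.52 (SE 0.49, adjusted p = 0.625). Rplp2, at 158, 117 and 193 CPM against 138, 107 and 109 CPM, had one of -0.40 (SE 0.55, adjusted p = 0.751). In both genes the groups overlapped, and the sign of Rplp2 turned with library totals (0.09). Whether Rplp0 differed from its partners was not tested.

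Other large subunit genes with the smallest p-values were Rpl13, Rpl8 and Rpl14. Rpl13, a protein of the solvent side of the large subunit, was at 323, 232 and 190 CPM in controls and 48.3, 50.03 and 47.3 CPM in Jun shRNA libraries. All 3 Jun shRNA values were close to each other and below every control, yet the gene did not pass (log2 fold change -2.36, SE 0.55, adjusted p = 0.0673). It did pass with DESeq2 (adjusted p = 0.047) and with limma-trend on the deposited values (0.0307 and 0.0348), and its near-identical copies held under 1% of its family's counts (0.218% and 0.473%). Rpl8, which lies near the site of peptide bond formation, was at 266, 252 and 247 CPM in controls and 112, 114 and 21.3 CPM in Jun shRNA libraries (-1.63, SE 0.69, adjusted p = 0.278), and no copy of it was found. Rpl14, at 186, 249 and 275 CPM against 157, 94.1 and 78.5 CPM, had a value of -1.11 (SE 0.53, adjusted p = 0.328). For these genes too, controls and Jun shRNA libraries did not overlap on the TMM scale.

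**Figure D3:**
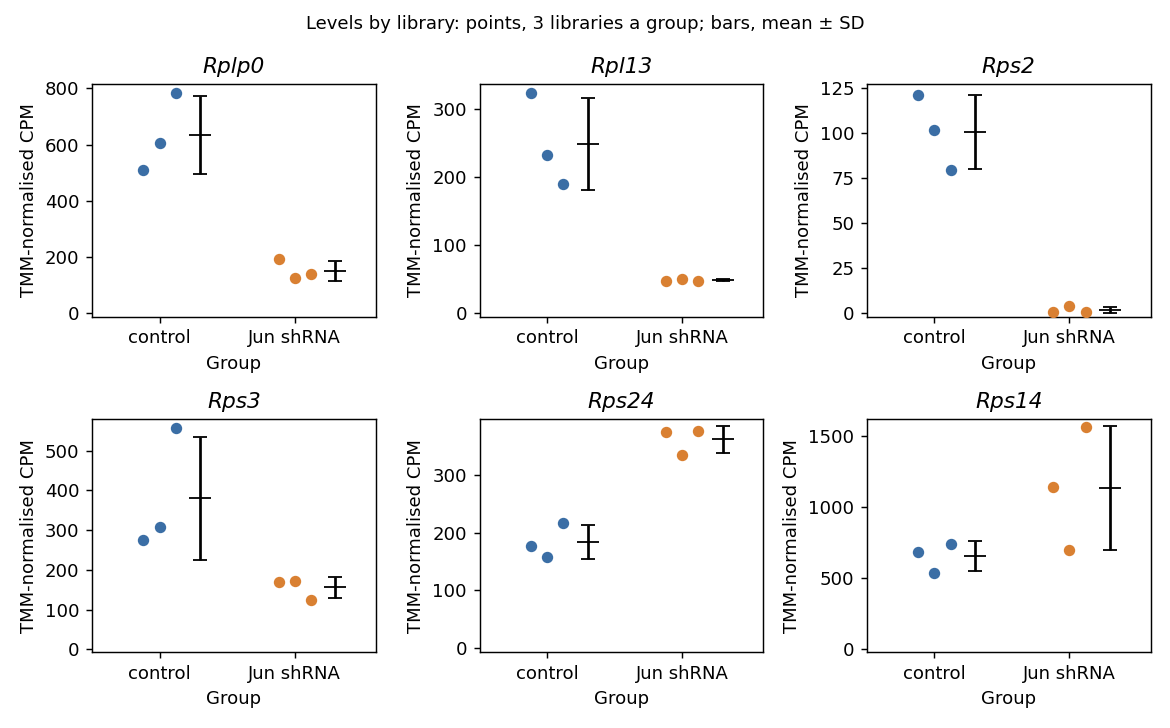
TMM-normalised CPM (vertical axes, linear, each with its own range) of 6 ribosomal protein genes in the 3 control (blue) and 3 Jun shRNA (orange) libraries, with the mean and SD of each group beside the points. Rplp0, Rpl13, Rps2 and Rps3 lie lower without overlap in the Jun shRNA libraries, Rps24 lies higher without overlap, and Rps14 overlaps; only Rplp0 passed the test.

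On the TMM scale, the groups separated completely for 11 members as lower (14.1% of 78) and for 4 as higher (5.13%). Of all tested genes, 15.7% and 12.6% separated in these directions. The lower ones were Rplp0, Rpl13, Rpl8, Rpl14, Rpl21, Rpl15, Rpl7l1, Rps2, Rps3, Rps25 and Rps18. The higher ones were Rpl23a, Rpl12, Rpl39 and Rps24. Some of these names fall outside the rule for named genes and were chosen with their values in view. On this scale the share of lower members is near that of all genes, and the share of higher members is below it. Which members separate depends on the scale. As CPM of the library total, with copies, Rps3, Rps25, Rpl14 and Rpl7l1 overlapped, while Rplp0, Rpl13, Rpl8 and Rps2 stayed lower without overlap. Rps14, Rps27a, Rpl37 and Rpl22l1 then lay higher without overlap, as did Rpl23a, Rpl12, Rpl39 and Rps24. Shares over all genes were not counted on that scale.

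In the small subunit, Rps2 had the most extreme value of the family. Rps2 (chr17:24718116-24721929, plus strand) encodes a protein at the entry of the mRNA channel. It was at 121, 102 and 79.6 CPM in the controls and 0.408, 3.61 and 0.589 CPM in the Jun shRNA libraries, where 6, 64 and 9 estimated counts were assigned to it. The groups lay far apart, with a log2 fold change of -6.03 (SE 1.31), and the adjusted p was 0.0564. It passed without a filter on low counts (adjusted p = 0.00279), with DESeq2 (3.86e-05), with limma-voom (0.0217) and with limma-trend (0.0274 and 0.0265), and missed under the other scalings.

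The reads of Rps2 could be shared with its copies, and its value moved when these were added. The gene had 28 near-identical copies, found by aligning its transcripts to all others at 95% identity or more. These copies held 55.9% of the family's counts in controls and 97.0% in Jun shRNA libraries. Counted together, Rps2 and its copies reached 224, 189 and 169 CPM of the library total over controls 1 to 3 and 27.8, 81.5 and 82.0 in the Jun shRNA libraries. The groups still did not overlap, but the log2 fold change became -2.12 (SE 0.64, adjusted p = 0.134). Rps2-ps13, a processed pseudogene (chrX:52898588-52899469), held 70.5, 61.6 and 47.8 CPM of the total in controls and 5.05, 42.0 and 19.97 in Jun shRNA libraries. Rps2-ps10 held 48.7, 34.4 and 40.9 against 22.2, 32.4 and 60.1 CPM of the total. Its levels overlapped between groups.

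A stretch of coding sequence shows how the gene and some of its copies differ. Rps2-ps13 differs from the Rps2 coding sequence at 7 of 882 bases (99.2% identity), and the longest stretch without a difference is 302 bases. Rps2-ps6 (chr14:76236691-76237545) differs at 7 of 855 aligned bases. Rps2-ps10 differs at 5 of 882 bases (99.4% identity), and its sequence is not given here. Coding bases 25 to 84 of Rps2 (chr17:24720300-24720359, plus strand) are given with the same window of both pseudogenes, 5′ to 3′, from GENCODE vM21, and capitals mark bases at which a copy and Rps2 differ.
Rps2: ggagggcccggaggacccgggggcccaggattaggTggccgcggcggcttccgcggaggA
Rps2-ps13: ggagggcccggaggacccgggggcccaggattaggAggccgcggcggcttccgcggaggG
Rps2-ps6: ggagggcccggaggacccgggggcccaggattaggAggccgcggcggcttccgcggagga
Within this window Rps2-ps13 differs from Rps2 at 2 bases and Rps2-ps6 at 1. The window was chosen for its differences: no other of its length, aligned in both pseudogenes, held more. The level of Rps2 alone is therefore uncertain in both groups.

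**Figure D4:**
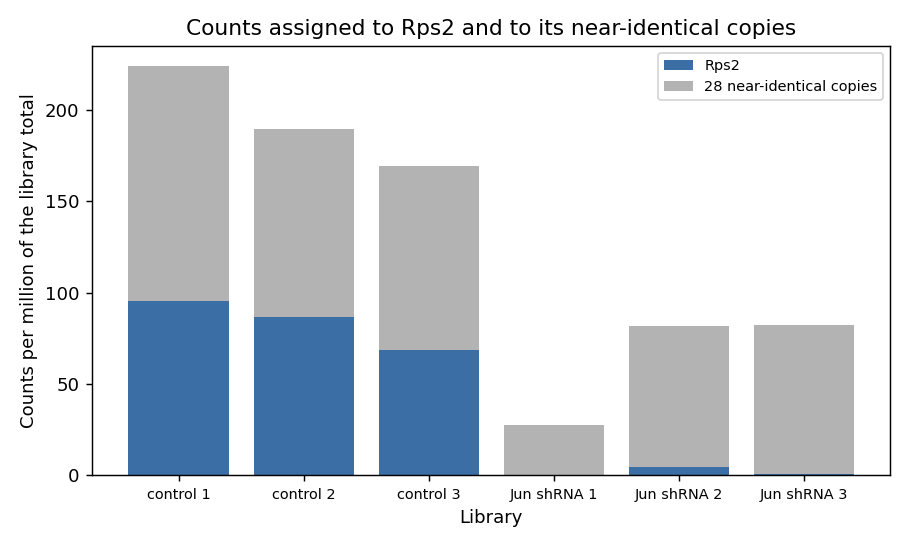
Estimated counts as CPM of the library total (vertical axis) assigned to Rps2 (blue) and to its 28 near-identical copies (grey) in each library. The sum is 169 to 224 in the controls and 27.8 to 82.0 in the Jun shRNA libraries, where nearly all of it is assigned to the copies.

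The same question touches other members to different degrees. Near-identical copies were found for 74 of the 81 genes, 576 in all, of which 558 are annotated as pseudogenes. All copies together held 0.222% of counts in controls and 0.260% in Jun shRNA libraries. Copies held most counts of the family for Rpl5 (92.8% in controls and 96.0% in Jun shRNA libraries), Rps18 (90.6% and 90.1%) and Rpl12 (85.8% and 74.6%). In all, 10 members had most counts of their family on copies in both groups, the others being Rps2, Rpl34, Rpl29, Rps7, Rpl21, Rpl26 and Rpl27, so the own levels of these genes are uncertain. Rpl21, which separated above, overlapped once its copies were added, at 391, 245 and 304 CPM of the library total in controls and 367, 339 and 193 in Jun shRNA libraries. For Rpl3, a core protein near the peptidyl transferase centre, the copies held 72.2% and 49.5%. For Rps24 they held 2.57% and 2.47%, and for Rps14 under 0.1% (0.0089% and 0.0147%).

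Among the remaining small subunit genes, Rps3, Rps24 and Rps14 had the smallest p-values and none passed. Rps3, which sits at the mRNA entry channel and also has a role in DNA repair, was at 274, 308 and 558 CPM in controls and 170, 173 and 124 CPM in Jun shRNA libraries (log2 fold change -1.29, SE 0.47, adjusted p = 0.214). Its groups did not overlap on the TMM scale, and without control 3, the highest library, the value was -0.89. Rps6, the target of the S6 kinases downstream of mTOR, was at 665, 459 and 765 CPM against 290, 414 and 466 CPM (-0.69, SE 0.38, adjusted p = 0.391), with overlap. Rps25, whose pyrimidine start is shown above, was at 390, 281 and 375 CPM against 170, 165 and 248 CPM (-0.84, SE 0.43, adjusted p = 0.357). That start belongs to Rps25-204, with a mean of 149 CPM in controls and 39.7 CPM in Jun shRNA libraries. Rps25-205 had means of 143 and 147 CPM.

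Rps24, one of the genes mutated in Diamond-Blackfan anaemia, a failure of red cell production, went the other way. It was at 177, 158 and 216 CPM in controls and 374, 335 and 377 CPM in Jun shRNA libraries. Every Jun shRNA library was above every control and the spread within each group was small (184 ± 29.6 and 362 ± 23.6 CPM, SD, n = 3), but the log2 fold change of 0.98 (SE 0.41) did not pass (adjusted p = 0.277). With library totals it was 1.47 (adjusted p = 0.0973). Rps14, known from the loss of one copy in the 5q- blood disorder, was at 686, 534 and 741 CPM against 1137, 696 and 1564 CPM (0.79, SE 0.36, adjusted p = 0.309). Jun shRNA library 2 lay among the controls on this TMM scale. As CPM of the library total, with copies, Rps14 did not overlap: 541, 454 and 640 in controls and 1265, 927 and 1709 in Jun shRNA libraries.

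Rps24 makes protein isoforms that differ only at the end of the coding sequence. The last bases are shown because the isoforms are separated by a few bases alone, from GENCODE vM21, 5′ to 3′, with the part after the shared 390 coding bases in capitals.
Rps24-201 and Rps24-202: atgttggtgctggcaaaaagTGA
Rps24-205: atgttggtgctggcaaaaagAAATGA
Rps24-201 and Rps24-202 encode 130 residues and Rps24-205 encodes 131. Rps24-202 took 17.6%, 22.1% and 17.9% of the gene's transcript counts in controls and 34.9%, 19.5% and 43.6% in Jun shRNA libraries, so Jun shRNA library 2 lay among the controls. Rps24-201 took 35.3% ± 5.86 and 32.2% ± 6.68, and Rps24-205 took 14.5% ± 4.91 and 15.2% ± 4.15 (SD, n = 3). Their shares differed by less than the spread between libraries.

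Genes with a second function outside the ribosome, and X-linked members, gave no call. Rpsa, which is also a laminin receptor, was at 59.8, 51.4 and 103 CPM in controls and 41.5, 12.3 and 89.2 CPM in Jun shRNA libraries (-0.58, SE 0.95, adjusted p = 0.793), with 54.0% and 30.2% of its family's counts on copies. Rps27a, made as a fusion with ubiquitin, was at 376, 238 and 415 CPM against 586, 325 and 493 CPM (0.45, SE 0.42, adjusted p = 0.617). Of the 4 X-linked genes, Rpl10 had a log2 fold change of -0.22, Rpl36a of 0.56, Rpl39 of 0.63 and Rps4x of -0.41, with adjusted p from 0.528 to 0.868, and the signs of Rpl10 and Rps4x turned positive with library totals. Rpl39, a very short protein that lines the exit tunnel, was at 178, 155 and 234 CPM against 245, 234 and 398 CPM. The highest control and the lowest Jun shRNA library of Rpl39 lay side by side, the control just below.

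Several members have a paralogue, and some of these paralogues can take their place in ribosomes of particular tissues. Rpl22l1, the paralogue whose mRNA is held down by Rpl22, was at 177, 36.3 and 78.1 CPM in controls and 292, 144 and 265 CPM in Jun shRNA libraries (1.27, SE 0.69, adjusted p = 0.384). Control 1 lay above Jun shRNA library 2, so the groups overlapped on the TMM scale. As CPM of the library total, with copies, Rpl22l1 did not overlap: 140, 31.1 and 67.6 in controls and 326, 194 and 291 in Jun shRNA libraries. Rpl22 itself was at 94.0, 55.1 and 133 CPM against 104, 88.2 and 174 CPM (0.38, SE 0.67, adjusted p = 0.808). Rpl7l1, a relative of Rpl7, was at 123, 106 and 156 CPM against 71.5, 70.4 and 77.9 CPM (-0.80, SE 0.62, adjusted p = 0.548), and Rpl7 had a value of 0.38 (adjusted p = 0.728). Rpl3 was at 54.3, 86.8 and 96.4 CPM against 147, 17.3 and 101 CPM (0.16, SE 0.87, adjusted p = 0.941), and its value was -0.68 with copies added, so its direction is not settled.

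The 3 members left untested by the filter on low counts are paralogues known from muscle or testis. Rpl3l, the muscle form of Rpl3 (chr17:24727820-24736143), was at 0, 15.0 and 30.3 CPM in the controls and 0.0681, 0.113 and 0.327 CPM in the Jun shRNA libraries. Control 1 lay below all of the others. Where a setting did test it, Rpl3l passed with DESeq2 (adjusted p = 0.0213) and not without a filter or with a library left out (0.176 to 0.404). Rpl10l, a testis form of Rpl10, had 2 estimated counts in control 1, 1 in Jun shRNA library 2 and 0 in each other library. Rpl39l, a testis form of Rpl39, had 0 in all 6.

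Counts divided by annotated transcript length allow levels to be set beside each other between genes. On that scale, in CPM after division by length, the family's most abundant member in controls was Rpl41, the smallest ribosomal protein, at 1793 ± 733 (SD, n = 3), which ranked 66 among all genes. Other abundant members were Rps29 at 1316 ± 573 and Rps14 at 1278 ± 161. The levels of Rps29 and Rps14 lie within 1 SD of that of Rpl41. The log2 fold change was 0.18 for Rpl41 and -0.47 for Rps29, neither called, and that of Rps29 turned to 0.0005 with library totals. Rpl19, another abundant large subunit protein, had a value of 0.18. In the Jun shRNA libraries Rps14 came first at 3040 ± 773, with Rpl41 at 2867 ± 262, and the 2 levels lie within their spread.

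Most members kept a similar place in the order of levels. Spearman's rho between the group means was 0.844 over 78 genes, as a description over genes that share libraries and lengths. Of the 78, 37 were among the 500 most abundant genes in controls and 43 in Jun shRNA libraries. The place of Rplp0 among the 81 members went from 12 (652 ± 145) to 57 (205 ± 39.0), that of Rpl13 from 30 to 67 and that of Rps2 from 65 to 78. The place of Rps24 went from 42 (305 ± 58.8) to 13 (862 ± 95.3). This scale is set by each library's sum of length-divided transcript counts, without TMM. The median level of the 78 members on it was 331 in controls and 378 in Jun shRNA libraries.

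**Figure D5:**
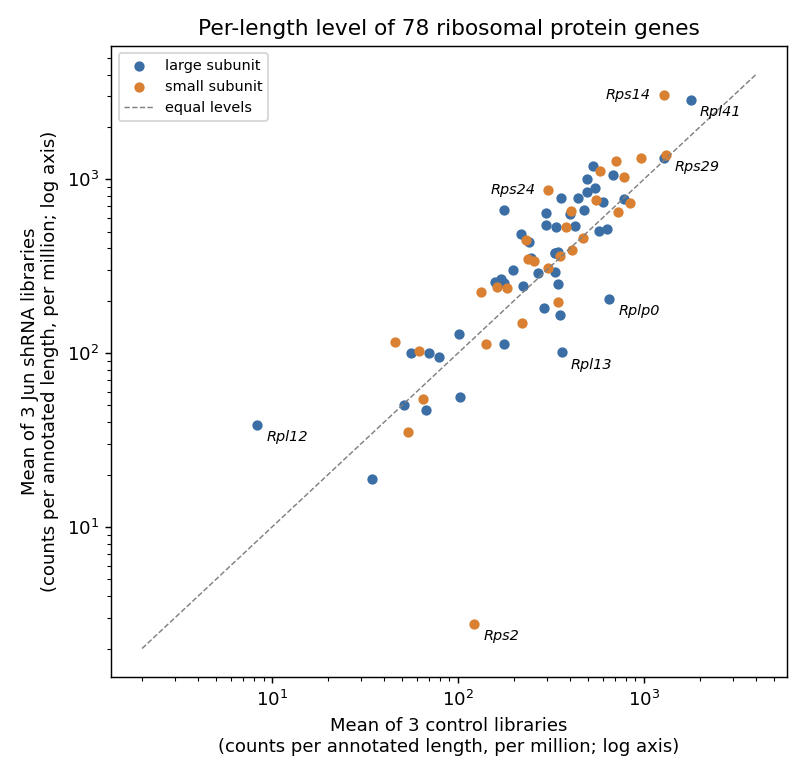
Mean level per annotated transcript length (length-scaled CPM; both axes log) of 78 ribosomal protein genes in the 3 control libraries (horizontal) and the 3 Jun shRNA libraries (vertical), with large subunit genes in blue and small subunit genes in orange. More genes lie above the line of equal levels than below it. Rps2 lies far below it (122 against 2.77), and Rplp0 and Rpl13 lie below it. Those above it include Rps24, Rpl12, Rps14 (1278 against 3040) and Rpl22l1 (177 against 662).

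Deposited gene counts are not sums of transcript counts, so the CPM of a gene and of its transcripts cannot be set side by side. At the level of transcripts, 0 of 208 tested transcripts of member genes passed edgeR's test, where 0.662% of all 20706 tested transcripts did. At an unadjusted p under 0.05 there were 13 of the 208, against 3218 of all (15.5%). The smallest p was that of Rplp0-201, the main transcript of Rplp0, at 522, 651 and 792 CPM in controls and 173, 115 and 118 CPM in Jun shRNA libraries (log2 fold change -2.28, SE 0.40, adjusted p = 0.0605). A second transcript, Rplp0-204, was at 79.4, 128 and 110 CPM against 29.9, 22.04 and 24.5 CPM (-2.05, SE 0.80, adjusted p = 0.261). Both tested transcripts of Rplp0 were thus lower without overlap. Rpl13-201 had a value of -2.46 (SE 0.55, adjusted p = 0.0919).

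Transcripts annotated with a retained intron took a larger share of the members' counts in the Jun shRNA libraries. The share was 1.77%, 2.13% and 1.91% in controls and 7.13%, 4.10% and 3.38% in Jun shRNA libraries, without overlap. It was 1.85% ± 0.0427 and 5.90% ± 2.75 in the large subunit and 2.07% ± 0.402 and 3.31% ± 0.766 in the small subunit (SD, n = 3). Over all protein-coding genes the share was higher in both groups, 3.23% ± 0.405 and 8.48% ± 0.990, and moved the same way. Of 35 tested retained-intron transcripts of members, 0 passed, with a median log2 fold change of 0.27, beside 1.21 over all 3200 such transcripts. One of them was Rpl22l1-208, at 1.604, 0.0972 and 0 CPM in controls and 162, 0 and 67.5 CPM in Jun shRNA libraries (adjusted p = 0.343), high in Jun shRNA libraries 1 and 3 alone.

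In the lists that follow, counts stand beside those of all tested genes: 1.67% called, 16.8% at an unadjusted p under 0.05, 15.7% lower and 12.6% higher without overlap, and a median log2 fold change of -0.12. Overlap in these lists was judged on the TMM scale alone. The 8 ribosomal genes outside the naming rule gave 0 calls and 1 at an unadjusted p under 0.05, with a median log2 fold change of -0.40 and with 2 lower and 0 higher without overlap. Rack1, a signalling scaffold on the head of the small subunit, was at 220, 377 and 537 CPM in controls and 91.0, 185 and 95.5 CPM in Jun shRNA libraries, without overlap (-1.61, SE 0.54, adjusted p = 0.18). Rps3a1, a core small subunit protein, was at 319, 214 and 294 CPM against 192, 88.7 and 174 CPM (-0.87, SE 0.51, adjusted p = 0.419). Rps4l, a relative of Rps4x, was at 0.0274, 24.6 and 50.3 CPM against 0, 6.43 and 0.131 CPM (-3.51, SE 2.57, adjusted p = 0.524).

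Other mRNAs known to carry a TOP motif, mostly translation factors, gave 1 lower and 0 higher of 22 tested (1.35% and 0.32% of all genes), with a median of -0.58. Groups did not overlap for 7 of them as lower (31.8%) and 0 as higher. The gene that fell was Eef1a1, the elongation factor that delivers aminoacyl-tRNA. It was at 1123, 1143 and 1245 CPM in controls and 192, 217 and 270 CPM in Jun shRNA libraries (-2.37, SE 0.32, adjusted p = 0.0117), and the call was lost without control 1 (0.0588) or control 3 (0.0681). Eef1d, a subunit of its exchange factor, was at 36.7, 45.3 and 24.8 CPM against 0.749, 1.80 and 0.720 CPM (-5.02, SE 1.44, adjusted p = 0.116). Whether ribosomal protein genes and these genes differed was not tested.

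Genes that build ribosomes gave 0 calls of 30 tested, with a median of -0.76 and 4 at an unadjusted p under 0.05. Groups did not overlap for 7 of them as lower (23.3%) and 0 as higher. Those with the smallest p were Utp4, a component of the small subunit processome (-3.96, adjusted p = 0.175), Ltv1, an export factor of the small subunit (-4.78, adjusted p = 0.266), and Mrto4, which holds the place of Rplp0 in the precursor of the large subunit. Mrto4 was at 52.3, 21.7 and 19.1 CPM in controls and 3.40, 2.76 and 4.91 CPM in Jun shRNA libraries, without overlap (-3.07, SE 1.33, adjusted p = 0.288). It passed with DESeq2 (adjusted p = 0.021).

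The 78 mitochondrial ribosomal protein genes gave 0 calls, 11 at an unadjusted p under 0.05, and a median of -0.52. Groups did not overlap for 21 of them as lower (26.9%) and 3 as higher (3.85%). Mrpl49, a large subunit protein, had the smallest p, at 1005, 822 and 1136 CPM in controls and 324, 430 and 455 CPM in Jun shRNA libraries (-1.29, SE 0.33, adjusted p = 0.0802). Mrpl2 (-1.61, adjusted p = 0.152) and Mrpl17 (-2.01, adjusted p = 0.182) followed, each without overlap.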

How the data were processed

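RNA was measured by SMART-seq v4 and Nextera XT, for which the labels state no step that marks strand. The submitters' processing notes list Trimmomatic 0.39, kallisto 0.44.0 and edgeR 3.28.1. Their genome build is not stated in the labels or headers. Estimated counts per gene and per transcript were deposited by the authors, with a normalised table in a signal unit scaled by 1 factor per library. The gene counts are not sums of the transcript counts: for 77 of 78 tested members they differed by over 10% in at least 1 library. No sample column was left out (0). Of the 81 members, 79 have the same position in GENCODE vM21, and deposited coordinates fit GRCm38.

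The estimated counts were rounded. After filterByExpr and TMM scaling, the quasi-likelihood test of edgeR 4.0.16 (run in R 4.3.3) was fitted with group as its single term. P-values were adjusted by Benjamini-Hochberg over 12815 genes or 20706 transcripts, with a threshold of 0.05. In counts of genes, fell and rose mean past this threshold. Standard errors are log2 fold changes over the square root of F. The functions were tested on simulated data. Near-identical copies were found with blastn 2.17.0 (at least 95% identity, 80% of the copy and 200 bases aligned).

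Alternatives were 3 other scalings, no filter, DESeq2 1.42.0, limma-voom and limma-trend (limma 3.58.1; pseudocounts of 0.5 and 2), thinning, a block on replicate number, and each library left out in turn. Adding copies, summing transcript counts, and the block and left-out libraries for transcripts were chosen after seeing the data. Members, gene lists and tests were chosen with earlier results of these data known. The rule for named genes took members past the threshold, the 4 smallest p-values, the extremes of fold change among members with at least 50 CPM and the 4 highest control levels per subunit, the stalk, ubiquitin-fusion, X-linked and paralogous members, members with 0 counts in a library, and the 3 smallest p-values of each other list. Some genes that the rule takes are not reported here.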

Additional observations from a re-analysis of the deposited data

How the results depend on the processing

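The 1 member called lower (Rplp0) was counted as 0 members under median-of-ratios, upper quartile and library-totals scaling, thinning and every left-out library (range 0 to 0). It was 2 without a filter (Rplp0, Rps2), and 3 with DESeq2 (Rps2, Rpl13, Rpl3l) and with limma-trend at either pseudocount (Rplp0, Rpl13, Rps2). limma-voom called 1, which was Rps2. No setting called a member higher. The small subunit median was 0.26 with upper quartile scaling, 0.36 with library totals and 0.26 with thinning, against -0.11 in the reported fit. It was -0.32 with limma-trend, -0.26 without a filter and -0.35 (without Jun shRNA library 3) to 0.05 with a library left out.

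Over all genes, 214 calls became 1955 with DESeq2, 737 without a filter, 442 with limma-voom, 615 and 553 with limma-trend, 133 with thinning and 36 to 110 with a library left out.

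The labels do not say that replicate numbers pair the samples. Same-numbered libraries correlated at 0.00042, 0.0080 and -0.015 in their deviations from the group means, and differently numbered ones at -0.016 to 0.016. With 3 libraries a group, such values cannot show whether libraries were paired. With the replicate block, 0 members and 97 genes passed, and Rplp0 was at -2.07 (adjusted p = 0.109).

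Among the named genes followed here, 22 uncalled values changed sign. Over all 78 members, negative values went from 45 to between 23 (library totals) and 56 (limma-trend). Library totals gave 0.23 for Rpl10, 0.089 for Rplp2, 0.0005 for Rps29 and 0.064 for Rps4x. Upper quartile scaling gave 0.17 and thinning 0.11 for Rpl10. limma-trend gave -0.059 and -0.058 for Rpl19 and -0.46 and -0.45 for Rpl3, limma-voom gave -0.40, the replicate block -0.23 and added copies -0.68 for Rpl3. Summed transcripts gave -0.60 for Rpl22. Leave-one-out values ran from -0.77 to 0.10 for Rpl10, from -0.11 to 0.50 for Rpl19, from -0.46 to 0.66 for Rpl3, from -0.018 to 0.55 for Rpl41 and from -0.19 to 0.73 for Rpl7. The cause of these changes was not tested.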
